A study of Mus musculus with 20 samples.

Results

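Cell cycle and proliferation genes were examined in the distal colon (DC) of mice fed resistant potato starch (RPS), as a set of 41 named genes that act in S phase and mitosis. The members were listed by symbol, a choice made with earlier results of these data known, and all 41 were found in the table of 26619 genes and passed the filter that left 17893 genes for testing. The 20 C57BL/6 mice had all received the Total Western Diet (TWD), which is modeled on what people in the United States eat, for 6 weeks from weaning, and then for 3 further weeks the same diet holding 0, 2, 5 or 10% RPS, with 5 mice per diet. The labels call the starch raw potato starch, and every group shared the TWD, so the 0% RPS mice are a Western diet control and not a standard diet control. The tissue was a piece of whole bowel wall close to the anus, and 1 stranded polyadenylated RNA library was made from each mouse.

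Before a cell divides it copies its DNA in S phase and then separates the copies in mitosis, and each step has its own set of genes that are switched on in that window. The replication licensing factors load the helicase that opens the DNA, cyclin E with its kinase starts replication, and the enzymes of nucleotide synthesis supply the building blocks. In late cell cycle, cyclin B with Cdk1 drives entry into mitosis, and kinases, motor proteins and the anaphase-promoting complex carry it through. In the colon these genes are used mainly by the stem and transit-amplifying cells at the base of the crypts, while the surface colonocytes have left the cycle. Follicles of lymphoid tissue in the bowel wall hold dividing B cells as well.

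Here 15 members were treated as S phase members, namely 8 licensing and helicase genes, 6 genes of the replication clamp, nucleotide supply and methylation upkeep, and cyclin E1 (Ccne1). The other 26, with the cyclin Ccna2 among them, were treated as mitotic members. Ccna2 had a log2 fold change of -0.02 at 10% RPS, so the counts by set depend on where the cyclins are placed. Medians of fold changes and counts by set were not among the planned results. The sets differed in pattern, although the difference between them was not tested. At 10% RPS all 15 S phase members had a fitted level above that at 0% RPS, the median log2 fold change being 0.69. Among all 17893 tested genes 8379 were above 0% RPS and 9514 below. Of the 26 mitotic members 22 were below 0% RPS, with a median of -0.12. The sign of the mitotic median turned when either of 2 mice was left out (RS10_704 on 0% RPS or RS10_727 on 10% RPS). Single members were seldom beyond the spread between mice. No member was called in any RPS level against 0% RPS (0.0391% of all tested genes were at 10% RPS), and 1 member, Ccne1, was called in the trend over the RPS percentage, beside 2.10% of all tested genes. In a piece of whole tissue, more cells in a given phase and more transcript per cell cannot be told apart.

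Both sets are known for shared promoter elements, so the promoters are shown here ahead of the values. Genes of S phase are classic targets of the E2F factors, and genes of mitosis are known for the cell cycle genes homology region (CHR) and CCAAT boxes. Promoter windows of 300 bases, running from 250 bases before the transcript start to 50 bases after it, were taken from RefSeq on GRCm38.p6 and were matched by symbol to 34 of the 41 members, 13 of S phase and 21 mitotic. Aurkb, Ccna2, Foxm1, Gins2, Kif20a, Mcm4 and Tpx2 were not matched. The searched letters, on both strands, were TTTGAA or TTTAAA for the CHR, CCAAT for the CCAAT box, and any of TTCCCGC or TTCGCGC or TTGCCGC or TTGGCGC for E2F. Matches of different elements overlapped in 5 cases among the member windows, as in that of Ect2 below.

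The CHR letters were found for 90.5% of the mitotic members (19 of 21), 46.2% of the S phase members (6 of 13) and 30.6% of all 27025 genes in the table. CCAAT was found for 90.5% of the mitotic members, 69.2% of the S phase members (9 of 13) and 41.1% of all genes. The E2F letters had the opposite order, with 61.5% of the S phase members (8 of 13), 23.8% of the mitotic members (5 of 21) and 10.9% of all genes. When only the 150 bases before the start were read, the CHR share of the mitotic members was 52.4% against 16.8% of all genes. A match is a description of letters in a window and was not tested as a working site.

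**Figure D1:**
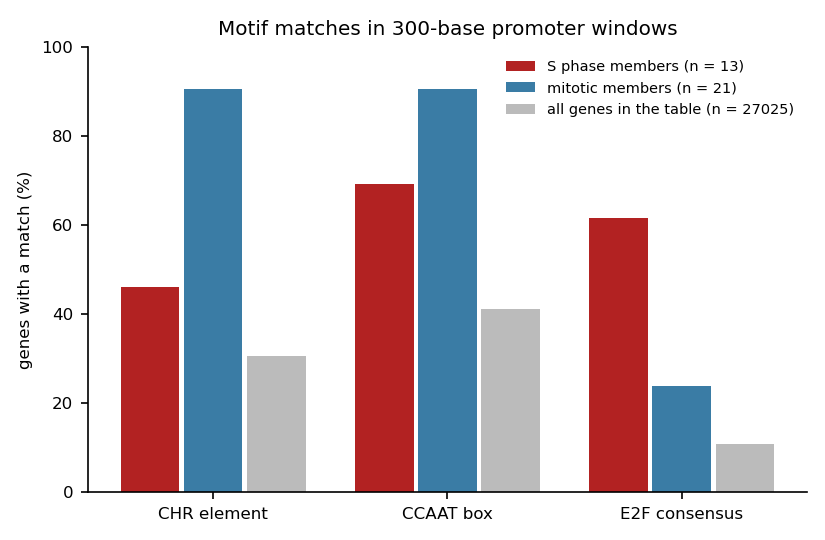
Share of genes with at least 1 match to each element in the 300-base RefSeq promoter window, in percent, for S phase members (13), mitotic members (21) and all 27025 genes in the table. The tallest bars for the CHR element and the CCAAT box are those of the mitotic members, at 90.5% each, and the tallest for E2F is that of the S phase members, at 61.5%.

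The 150 bases before the start are printed for 3 named members of each set, taken in order of their number of matches in them, 5′ to 3′ on the strand of the gene, with the matches in capitals. In the S phase set these were Mcm6, a subunit of the replicative helicase (chr1:128359706-128359855, minus strand), Uhrf1, which carries DNA methylation through replication (chr17:56303187-56303336, plus strand), and Ccne1 (chr7:38107491-38107640, minus strand). They show the E2F letters where they occur, and in Mcm6 these form 2 blocks, each read as 2 matches on opposite strands. The stretch of Ccne1 held 1 CHR match and 0 E2F matches. With 1 match it tied with Mcm2, Pcna and Rrm2, and it was taken as the first by alphabet.
Mcm6: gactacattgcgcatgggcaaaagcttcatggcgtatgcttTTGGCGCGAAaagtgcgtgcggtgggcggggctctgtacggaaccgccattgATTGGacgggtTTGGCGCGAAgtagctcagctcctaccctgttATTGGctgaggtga
Uhrf1: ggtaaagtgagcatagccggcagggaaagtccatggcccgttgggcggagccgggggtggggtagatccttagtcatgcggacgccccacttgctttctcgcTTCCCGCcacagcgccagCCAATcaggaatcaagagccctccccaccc
Ccne1: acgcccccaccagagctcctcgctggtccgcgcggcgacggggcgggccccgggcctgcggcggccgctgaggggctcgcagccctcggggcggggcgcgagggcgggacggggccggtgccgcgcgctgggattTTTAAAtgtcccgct
In the mitotic set they were Cdk1, the kinase that drives entry into mitosis (chr10:69352913-69353062, minus strand), Ect2, which positions the cleavage furrow (chr3:27153855-27154004, minus strand), and Top2a, the topoisomerase that untangles chromosomes (chr11:99024190-99024339, minus strand). Each held 2 to 4 CCAAT boxes and at least 1 CHR match, and Cdk1 and Ect2 also held 1 E2F match each, so these 6 stretches do not part the sets by element.
Cdk1: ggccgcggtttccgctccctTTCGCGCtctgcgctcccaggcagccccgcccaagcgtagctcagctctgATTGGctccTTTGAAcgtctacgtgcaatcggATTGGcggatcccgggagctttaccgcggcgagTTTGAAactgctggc
Ect2: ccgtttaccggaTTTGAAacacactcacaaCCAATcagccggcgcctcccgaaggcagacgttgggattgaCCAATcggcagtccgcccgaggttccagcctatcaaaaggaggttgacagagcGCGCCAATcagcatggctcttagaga
Top2a: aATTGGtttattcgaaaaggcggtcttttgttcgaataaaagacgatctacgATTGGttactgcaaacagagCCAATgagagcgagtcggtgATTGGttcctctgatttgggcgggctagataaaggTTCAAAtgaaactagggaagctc

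Total counts ran from 18.4 to 35.0 megacounts per library, with 31.3 to 35.0 at 0% RPS and 18.4 to 26.6 at 10% RPS, so the RPS groups were read less deeply. Counts of single members lay between 51 (Bub1) and 6748 (Mki67), and levels are given as CPM, counts per megacount of the library after TMM scaling. Markers of epithelium and of smooth muscle were high in all libraries (Epcam 1440 to 1789 CPM, Acta2 1231 to 2644 CPM). Mouse RS10_721 (5% RPS) carried pancreatic transcripts, with 7245 CPM over that list and a mean of 8.95 log2 CPM. RS10_784 (10% RPS) also stood apart, with 980 CPM and a mean of 5.78 against at most 2.21 in the other 18 mice, and it was among the highest mice for both sets (rank 4 for the S phase mean and 2 for the mitotic mean). Without it the medians at 10% RPS were 0.62 for the S phase members and -0.26 for the mitotic members. RS10_721 also had the lowest mean of the 20 mice over the smooth muscle (8.97 log2 CPM) and posterior gut lists (5.26 log2 CPM). Its mean over the epithelial list was the highest (10.0 log2 CPM). For 3 mice the description label, which was used here, and the treatment label disagree: RS10_717 (5% and 2%), RS10_725 (10% and 5%) and RS10_748 (2% and 10%). The p-values measure the spread between these mice.

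The licensing and helicase genes showed the largest values as a group. Mcm2 to Mcm7 form the ring that unwinds DNA, Cdc6 helps to load it and Gins2 belongs to the complex that activates it. All 8 were above 0% RPS at 2, 5 and 10% RPS, with median log2 fold changes of 0.32, 0.69 and 0.79. At an unadjusted p under 0.05 were 6 of the 8 at 10% RPS (Mcm2, Mcm3, Mcm4, Mcm5, Mcm6 and Cdc6) and the same 6 at 5% RPS, and no gene at 2% RPS. Of all tested genes 7.32%, 4.69% and 0.693% were higher at this p at 10, 5 and 2% RPS. Their adjusted p-values at 10% RPS from edgeR were 0.127 to 0.430, so none was called.

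Mcm2 (ENSMUSG00000002870, GRCm39 chromosome 6, 88860452 to 88875762) measured 26.9, 27.3, 29.7, 15.8 and 14.6 CPM in the 0% RPS mice. In the 10% RPS mice it measured 30.2, 30.9, 49.0, 45.5 and 38.0 CPM. All 5 mice on 10% RPS lay above all 5 on 0% RPS, a separation seen for 1.13% of all tested genes in this direction and 1.15% in the other, and for no other member. The log2 fold change was 0.76 ± 0.23 (SE, edgeR adjusted p = 0.127). At 5% RPS the values were 45.0, 24.7, 38.7, 31.4 and 43.8 CPM, which overlap with the 0% RPS mice.

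Mcm6 measured 43.6, 44.5, 54.4, 26.4 and 28.3 CPM at 0% RPS and 56.4, 43.6, 96.7, 85.6 and 67.0 CPM at 10% RPS. The groups overlapped through RS10_727 (10% RPS, 43.6 CPM), which lay below RS10_703 and RS10_704 of the 0% RPS mice. Its log2 fold change was 0.83 ± 0.26 at 10% RPS, 0.70 ± 0.26 at 5% RPS and 0.43 ± 0.26 at 2% RPS (SE), and at 2% RPS it had the smallest p of all members. Mcm4 had the smallest p at 5% RPS, with 35.1 ± 7.70 CPM against 23.2 ± 4.98 CPM (SD, n = 5) and an edgeR adjusted p of 0.366. Cdc6 had the largest log2 fold change of the members at 10% RPS, 1.02 ± 0.37 (SE), from 4.57 ± 2.05 to 9.22 ± 3.30 CPM (SD, n = 5). These genes share the same direction, but each contrast uses the same 5 control mice.

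Among the clamp, nucleotide supply and methylation genes the values were smaller and less even. Pcna, the ring that holds the polymerase on DNA, was the highest member per kilobase of transcript (58.8 CPM per kb), and Cdc6 was the lowest. It measured 74.3, 84.5, 85.5, 52.5 and 60.6 CPM at 0% RPS and 91.3, 83.5, 127, 113 and 107 CPM at 10% RPS. Only RS10_727 (83.5 CPM) fell within the range of the 0% RPS mice, and the log2 fold change was 0.55 ± 0.16 (SE, edgeR adjusted p = 0.122). Uhrf1 had the largest spread within a diet of all members (SD 0.72 on the log2 scale), and with 24.9, 28.5, 46.7, 16.1 and 8.80 CPM at 0% RPS and 27.8, 25.1, 78.6, 53.2 and 59.3 CPM at 10% RPS its groups overlapped widely. Its difference on the log2 scale was 0.97 ± 0.44 (SE, edgeR adjusted p = 0.313).

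Rrm2, the regulated subunit of ribonucleotide reductase, measured 11.7, 15.9, 25.1, 8.03 and 6.09 CPM at 0% RPS and 14.5, 8.38, 30.9, 23.0 and 30.4 CPM at 10% RPS. The difference was 0.69 ± 0.39 on the log2 scale (SE, edgeR adjusted p = 0.413). The other subunit, Rrm1, had 0.35 ± 0.20 and thymidylate synthase (Tyms) 0.24 ± 0.14 on the same scale (SE). Thymidine kinase (Tk1) had the smallest value of the S phase members, 0.24 ± 0.25 (SE), and was the only one below 0 at 2% RPS (-0.03). Tyms and Pcna were among the 3 members with the smallest spread within a diet. Of these 6 genes, Pcna and Uhrf1 were at an unadjusted p under 0.05 at 10% RPS and Pcna at 5% RPS.

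Ccne1 (ENSMUSG00000002068, GRCm39 chromosome 7, 37797404 to 37808264), the cyclin that starts S phase, was the member with the smallest p at 10% RPS and in the trend. It measured 4.05, 5.00, 6.18, 1.90 and 2.41 CPM at 0% RPS and 4.22, 2.72, 3.91, 4.65 and 6.45 CPM at 2% RPS. At 5% RPS it measured 8.03, 4.94, 8.22, 5.61 and 6.70 CPM, and at 10% RPS 5.93, 5.60, 9.09, 8.46 and 7.84 CPM. The 2 lowest mice on 10% RPS lay below the highest on 0% RPS, so the groups overlapped. The log2 fold change was 0.92 ± 0.27 at 10% RPS (SE, edgeR adjusted p = 0.120) and 0.78 ± 0.27 at 5% RPS (adjusted p = 0.370).

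Over the 4 diets Ccne1 rose by 0.97 ± 0.26 on the log2 scale per 10 percentage points of RPS (SE, edgeR adjusted p = 0.0477), the only member to pass. This call was narrow. It was lost in 14 of the 20 fits that left out 1 mouse and in 9 of the 11 other fits tried. The slope was between 0.84 and 1.11 in the former, and in the latter it fell to 0.53 with an epithelium covariate, 0.63 with a plasma cell covariate and 0.64 with the epithelium covariate less Cdx2. The exons of Ccne1 share 70 bases with those of 1600014C10Rik on the opposite strand and those of Pcna share 499 bases with AV099323, and the strand setting of the counting is not given in the sources used here.

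**Figure D2:**
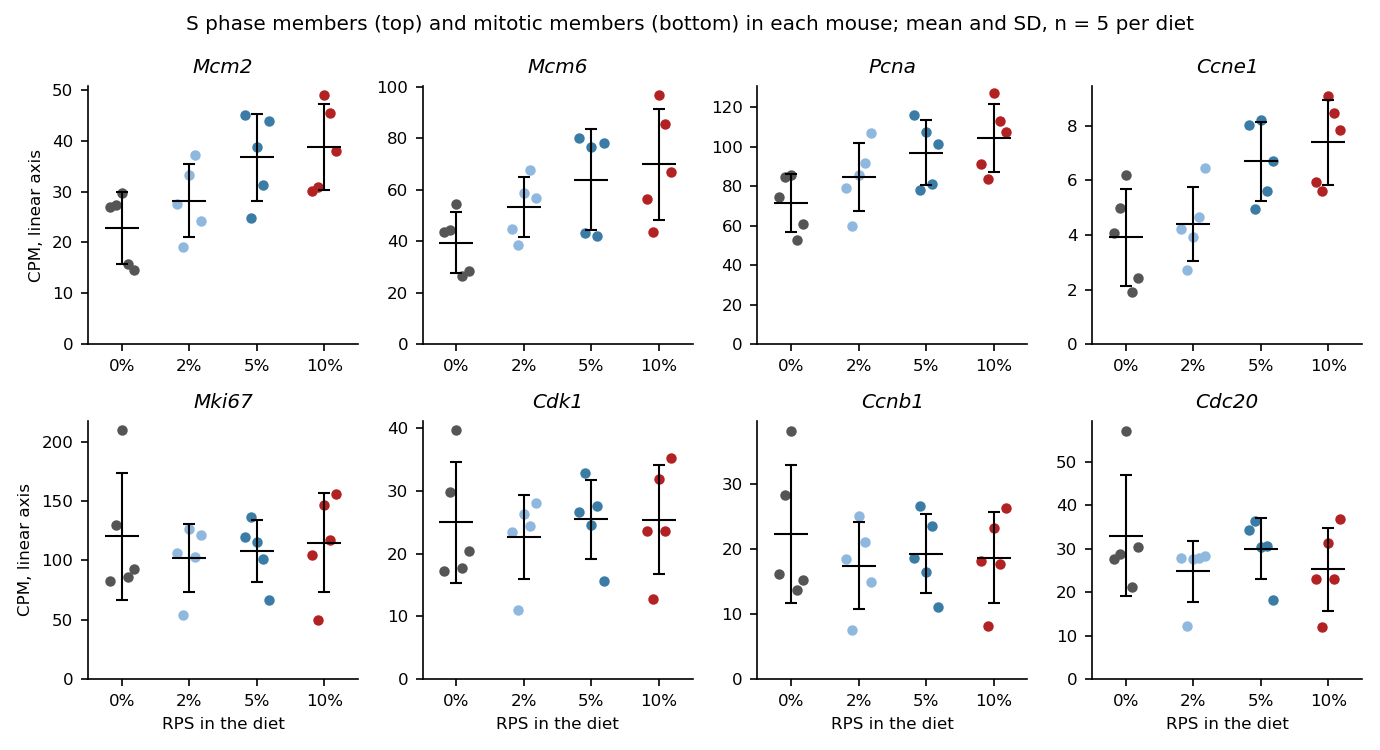
CPM (linear axis from 0) in each mouse by RPS percentage for 4 S phase members (top) and 4 mitotic members (bottom), with the mean and SD of 5 mice as bars. All 5 mice on 10% RPS are above all 5 on 0% RPS for Mcm2 only, while the mitotic members overlap at every level, with RS10_704 (0% RPS) the highest point for each of the 4.

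The mitotic members gave another picture. None of the 26 was at an unadjusted p under 0.05 in any contrast, and their log2 fold changes at 10% RPS ran from -0.43 (Cenpf) to 0.12 (Bub1). Mki67, the proliferation marker that coats mitotic chromosomes, measured 82.8, 130, 210, 86.3 and 92.4 CPM at 0% RPS and 105, 49.9, 147, 118 and 156 CPM at 10% RPS. The group means were 120 ± 53.4 and 115 ± 41.8 CPM (SD, n = 5) and the log2 fold change was -0.06 ± 0.32 (SE, edgeR adjusted p = 0.948). With an SE of this size a sizeable change in either direction would not have been seen.

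Cdk1 measured 17.3, 29.8, 39.8, 17.7 and 20.4 CPM at 0% RPS and 23.6, 12.8, 31.9, 23.7 and 35.2 CPM at 10% RPS (0.03 ± 0.30 on the log2 scale, SE). Its partner Ccnb1 measured 16.1, 28.3, 38.1, 13.6 and 15.2 CPM at 0% RPS and 18.1, 8.11, 23.2, 17.6 and 26.3 CPM at 10% RPS (-0.25 ± 0.36, SE), and Ccnb2 had -0.31 ± 0.31 (SE). For Cdk1 and Ccnb1 the highest mouse was RS10_704 on 0% RPS and the lowest mouse on 10% RPS was RS10_727. Foxm1, the factor that switches on mitotic genes, had -0.03 ± 0.29 and Ccna2 -0.02 ± 0.34 (SE).

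The kinetochore and chromosomal passenger genes (Cenpa, Cenpe, Cenpf and Birc5) were all below 0% RPS at each RPS level, and their median at 10% RPS was -0.22 on the log2 scale. Cenpf had the most negative values of the members at 10% and 5% RPS, -0.43 ± 0.30 in both (SE, edgeR adjusted p = 0.531 and 0.686). Cdc20, the activator of the anaphase-promoting complex, measured 27.6, 28.7, 57.1, 21.2 and 30.3 CPM at 0% RPS and 23.0, 12.0, 31.2, 22.9 and 36.9 CPM at 10% RPS. Its log2 fold change was -0.38 ± 0.31 (SE), and Ube2c, the ubiquitin-conjugating enzyme of that complex, had -0.27 ± 0.32 (SE).

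The 8 spindle and cytokinesis genes were also below 0% RPS at each RPS level, at medians of -0.31, -0.21 and -0.15 for 2, 5 and 10% RPS. Nusap1 (-0.29 ± 0.27) and Ect2 (-0.37 ± 0.38) were named at 5% RPS, and Hmmr (-0.48 ± 0.32) and Cenpa (-0.42 ± 0.29) at 2% RPS for having the smallest p in that direction (SE, edgeR adjusted p of at least 0.764). The mitotic kinases and checkpoint genes lay near 0 at 10% RPS, from -0.11 (Bub1b) to 0.12 (Bub1). Plk1, the polo-like kinase, was the steadiest member, with an SD within a diet of 0.19 on the log2 scale and group means of 82.9 ± 7.81 CPM without RPS and 79.8 ± 13.4 CPM on 10% RPS (SD, n = 5). The 2 chromosome structure genes, Mki67 and Top2a, had a median of 0.01.

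**Figure D3:**
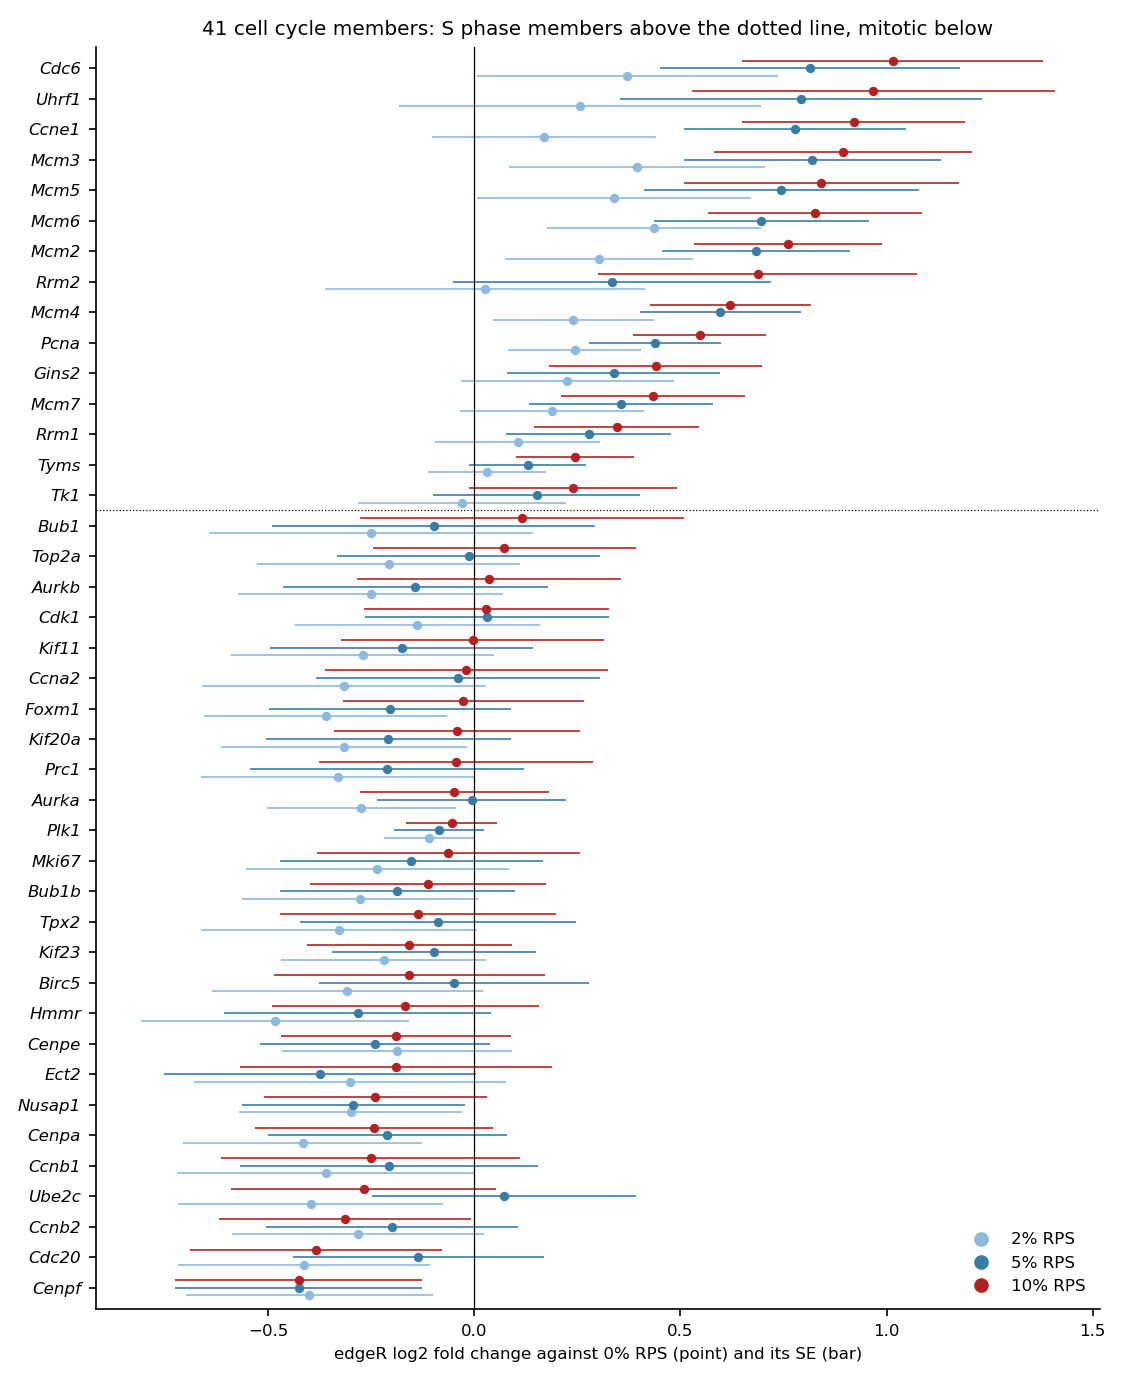
edgeR log2 fold change against 0% RPS of each of the 41 members at 2, 5 and 10% RPS, with its SE as a bar, S phase members above the dotted line. All 15 S phase members are right of 0 at 10 and 5% RPS, with Cdc6 farthest at 1.02, and the mitotic members are spread from -0.43 to 0.12 at 10% RPS. The 3 contrasts share the 5 control mice.

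Counts over the members were read against all tested genes. The edgeR call asked for an adjusted p no higher than 0.05 with a fold change no smaller than 1.5, and no member was called at 10% RPS, where 0.0391% of all genes were, nor at 5% or 2% RPS, where 0% of all genes were. At an unadjusted p under 0.05, 9 members (22.0%) were higher at 10% RPS against 7.32% of all genes, and 0 were lower against 7.87%. At 5% RPS, 8 members (19.5%) were higher against 4.69% and 0 lower against 4.50%. At 2% RPS, 0 were higher against 0.693% and 0 lower against 0.721%. All members counted as higher at 10 and 5% RPS were S phase members.

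In the trend, 1 member was called (2.44%) against 2.10% of all genes, a share near that background. At an unadjusted p under 0.05 were 10 members with a positive slope (24.4%) against 9.00% of all genes, and 0 with a negative slope against 10.1%. These were the 9 members named at 10% RPS and Rrm2. For any difference among the 4 diets 0 members were called against 0.0727% of all genes, and 6 members (14.6%) were at an unadjusted p under 0.05 against 10.6%. Over all 41 members the median log2 fold change was -0.02 at 10% RPS, -0.05 at 5% RPS and -0.24 at 2% RPS, beside -0.01, -0.01 and -0.00 over all tested genes.

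With DESeq2 in place of edgeR more members were called. At 10% RPS these were Mcm2, Mcm6, Ccne1 and Mcm4 with 4 members (9.76%) against 1.24% of all genes, with adjusted p-values of 0.0276, 0.0283, 0.0291 and 0.0444. Pcna had an adjusted p of 0.0336 and a log2 fold change of 0.56, short of the fold threshold. At 5% RPS DESeq2 called 0 members against 0.195% of all genes and at 2% RPS 0 against 0.00386%. In the trend it called 5 members (12.2%) against 5.61% of all genes, Ccne1 having the smallest adjusted p at 0.00586, and for any diet difference 1 member (2.44%), Ccne1, against 2.01%.

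Mice differed more in these genes than in most. The median SD within a diet was 0.52 on the log2 scale for the members (0.43 for S phase, 0.53 for mitotic) against 0.22 for all tested genes, and the median biological coefficient of variation was 0.328 against 0.154. RS10_704 (0% RPS) had the highest level of the 20 mice for 24 members and the highest mean over the mitotic members, 5.38 on the log2 CPM scale. RS10_729 (10% RPS) was the highest for 13 members and had the highest mean over the S phase members, 5.37. The lowest mice were RS10_727 (10% RPS), lowest for 18 members, and RS10_712 (2% RPS), lowest for 12, and RS10_727 was also the smallest library.

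The mean over the S phase members was 4.24 ± 0.50, 4.49 ± 0.37, 4.80 ± 0.35 and 4.91 ± 0.44 log2 CPM for 0, 2, 5 and 10% RPS in turn (SD, n = 5). The mean over the mitotic members was 4.65 ± 0.49, 4.37 ± 0.50, 4.54 ± 0.37 and 4.50 ± 0.64 in the same order. Within a mouse, the S phase mean minus the mitotic mean was 0.08, -0.41, -0.52, -0.56 and -0.67 at 0% RPS and 0.02, 0.91, 0.45, 0.59 and 0.05 at 10% RPS. It was above 0 in all 5 mice on 10% RPS and in RS10_701 alone on 0% RPS, whose value lay above those of 2 mice on 10% RPS. At 2% RPS it ran from -0.17 to 0.41 and at 5% RPS from -0.49 to 1.06. These are means over chosen members and were given no test.

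**Figure D4:**
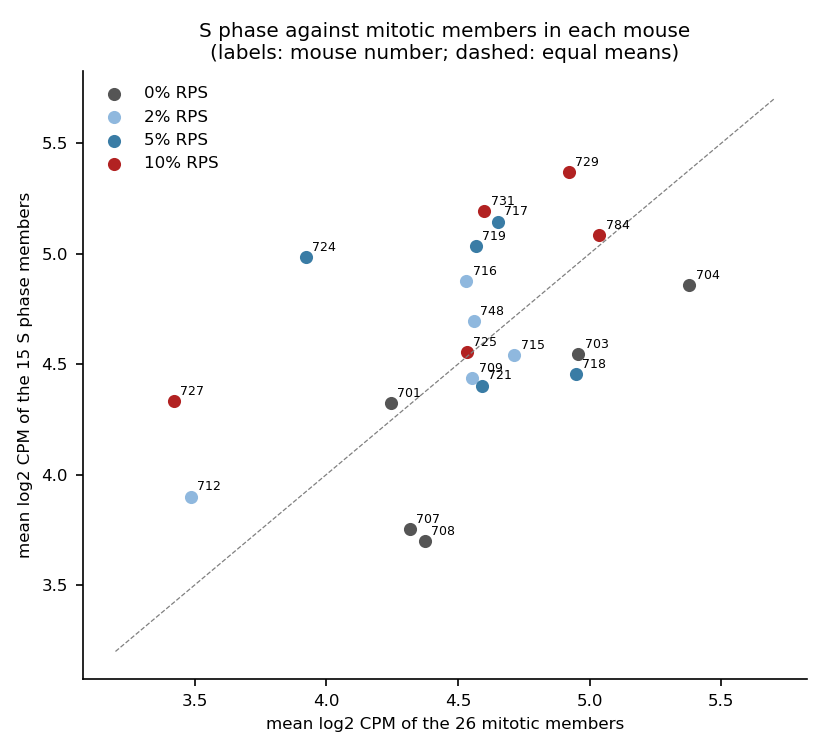
Mean log2 CPM of the 15 S phase members against that of the 26 mitotic members in each of the 20 mice, labelled by mouse number, with equal means as a dashed line. The 5 mice on 10% RPS lie above the line and 4 of the 5 on 0% RPS below it, RS10_704 being farthest right at 5.38.

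Single mice turned the mitotic values. Without RS10_704 the median log2 fold change of the mitotic members was 0.082 at 10% RPS and 0.051 at 5% RPS, and at 2% RPS -0.079. Without RS10_727 (10% RPS) it was 0.064 at 10% RPS. The difference in the mitotic mean by mouse turned likewise, from -0.15 to 0.032 without RS10_704 and 0.13 without RS10_727 at 10% RPS, and from -0.12 to 0.058 without RS10_704 and 0.028 without RS10_724 at 5% RPS. The S phase median kept its sign whichever mouse was left out, at 0.52 to 0.88 at 10% RPS and 0.50 to 0.69 at 5% RPS. Without RS10_704, and likewise without RS10_727, 14 S phase members were at an unadjusted p under 0.05 at 10% RPS, and without RS10_707, RS10_708, RS10_729 or RS10_731 there were 7. The share of all tested genes was not counted in these fits, so these counts cannot be read against it. Without the 3 mice whose labels disagree the S phase median at 10% RPS was 0.81, and Ccne1 was not called in the trend.

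Other genes of the same processes were counted, beside 7.32% of all tested genes higher and 7.87% lower at an unadjusted p under 0.05 at 10% RPS. Of 40 further S phase genes, 39 were above 0% RPS at 10% RPS (median log2 fold change 0.45), 21 were at an unadjusted p under 0.05 and higher, and 0 were lower. Cyclin E2 (Ccne2) rose over the diets by 0.78 ± 0.20 per 10 percentage points (SE, edgeR adjusted p = 0.0404), and the licensing factor Cdt1 and the factor E2f1 had 0.82 ± 0.25 and 0.88 ± 0.29 at 10% RPS (SE, adjusted p = 0.136 and 0.163). Of 60 further mitotic genes, 24 were above and 36 below at 10% RPS (median -0.04), with 2 at an unadjusted p under 0.05 and higher (Mybl2 and Ncapg2) and 1 lower (Pttg1). Mybl2, a factor that acts with the CHR-binding complex, had the smallest trend p of these, with 0.84 ± 0.24 (SE, edgeR adjusted p = 0.0687).

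Among 32 tested genes of G1 control and cell cycle brakes, 5 were higher and 1 lower at that p at 10% RPS, beside the same shares of all genes. Over the 32 genes the log2 fold changes at 10% RPS ran from -0.69 to 0.43, with a median of 0.03. E2f3, an activating E2F factor, rose over the diets by 0.43 ± 0.10 per 10 percentage points (SE, edgeR adjusted p = 0.0257). The inhibitors Cdkn1a and Cdkn1b, picked after their values were seen, had 0.04 ± 0.13 and -0.08 ± 0.11 at 10% RPS (SE) and do not stand for the list. E2f3 measured 21.3, 26.7, 23.8, 19.9 and 22.0 CPM at 0% RPS and 31.6, 28.4, 34.8, 27.1 and 30.9 CPM at 10% RPS, so these groups did not overlap, as for 1.13% of all tested genes in this direction. Of 16 crypt stem and progenitor genes, Prom1 rose in the trend (1.01 ± 0.24, SE, edgeR adjusted p = 0.0348) and 15 were not called, beside 2.10% of all tested genes called. Lgr5, the stem cell receptor, had 0.08 ± 0.18 at 10% RPS (SE).

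The means over the surface colonocyte and epithelial lists were also higher at 10% RPS than at 0% RPS. Whether they followed the S phase members from mouse to mouse was not tested. All 9 tested surface colonocyte genes were above 0% RPS at 10% RPS, and Car4, a carbonic anhydrase of the surface, was called there (0.71 ± 0.11, SE, edgeR adjusted p = 0.0102). The mean over 12 epithelial genes was 9.46 ± 0.13 at 0% RPS and 9.72 ± 0.12 at 10% RPS (log2 CPM, SD, n = 5), and the summed level ran from 16248 to 21230 CPM and from 18585 to 22354 CPM. With this mean as a covariate, 0 S phase members were at an unadjusted p under 0.05 at 10% RPS, where 2.70% of all tested genes were higher, and their median was 0.46. The mitotic median was -0.51, and Ccnb2, Cdc20, Cenpf and Ube2c were lower at that p, beside 2.11% of all genes. With Cdx2 left out of that list, a fit added after seeing the data because its log2 fold change was 1.44, there were 5 S phase members higher beside 3.84% of all genes, and the medians were 0.47 and -0.38.

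The mean over 15 germinal center and follicular B cell genes was 2.17 ± 0.83 at 0% RPS and 2.72 ± 0.26 at 10% RPS, with 0.81 in RS10_708, and the sum over them ran from 59.9 to 172 CPM and from 128 to 187 CPM. No marker of this list was at 0 in any mouse. As a covariate it left 5 S phase members higher at an unadjusted p under 0.05 at 10% RPS, beside 4.27% of all genes, and a median of 0.52. Clock output genes were lower at 10% RPS in 10 of 10 cases with 0 called, and as a covariate they left 8 members, all of S phase, beside 6.73% of all genes, and a median of 0.66. Summed levels of T cell (15.2 to 31.9 against 18.6 to 31.0 CPM), squamous (14.7 to 22.1 against 13.6 to 27.5 CPM) and smooth muscle genes (8338 to 13363 against 9688 to 12159 CPM) overlapped between 0 and 10% RPS. All 8 plasma cell genes were above 0% RPS at 10% RPS, with a median log2 fold change of 0.79. At an unadjusted p under 0.05, 3 were higher beside 7.32% of all genes, and the 8 summed to 453 to 1047 against 812 to 1212 CPM. With their mean as a covariate, a fit added after seeing the data, 0 S phase members were higher at that p beside 3.31% of all genes, and the medians were 0.41 for the S phase members and -0.50 for the mitotic members. The means used as covariates themselves differed between 0 and 10% RPS, so these fits cannot tell cell types or the clock apart from diet. Their part in the S phase values was not tested.

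Over the diets 5 of the 9 tested surface colonocyte genes rose, beside 2.10% of all tested genes called in the trend in either direction. The slopes of the 5 per 10 percentage points lay between 0.46 ± 0.11 (Ceacam20) and 0.97 ± 0.21 (Krt20) on the log2 scale (SE, edgeR adjusted p = 0.0255 and 0.0249). The others were Car4, the anion exchanger Slc26a3 and the water channel Aqp8. Tnfrsf17, the survival receptor of plasma cells, rose by 1.28 ± 0.30 (SE, edgeR adjusted p = 0.0279). Hoxb13, a gene of the posterior gut, fell by 0.32 on the log2 scale (adjusted p = 0.0425). In the remaining lists no gene was called, and the smallest adjusted p was 0.0521 for Dsg3 (squamous), 0.0838 for Tspan8 (epithelium), 0.0936 for Per1 (clock output), 0.118 for Rgs13 (B cell), 0.136 for Cd3g (T cell), 0.232 for Myl9 (smooth muscle), 0.267 for Npas2 (clock opposite phase) and 0.449 for Pnlip (pancreas).

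**Figure D5:**
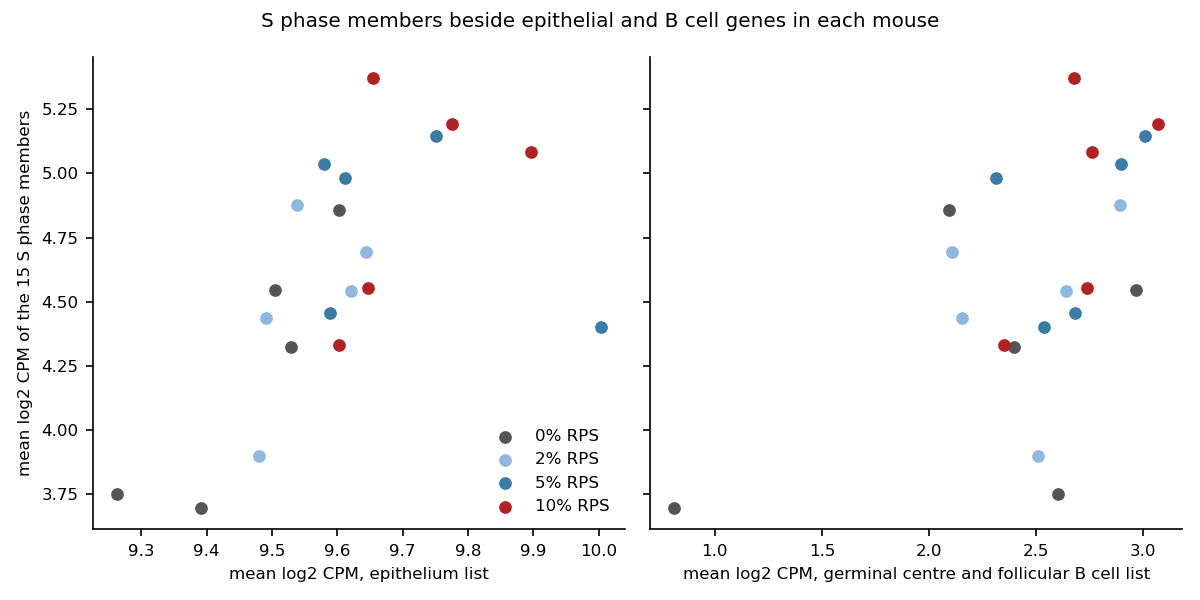
Mean log2 CPM of the 15 S phase members against the mean of the epithelium list (left) and of the germinal center and follicular B cell list (right) in each of the 20 mice, colored by RPS percentage. RS10_708 (0% RPS) is far left in the right panel at 0.81, and RS10_721 (5% RPS), which carried pancreatic transcripts, is farthest right in the left panel at 10.0.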

How the data were processed

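One polyadenylated RNA library per mouse (TruSeq Stranded mRNA) was read single-end. The authors trimmed the reads, mapped them to GRCm39 in CLC Genomics Workbench and deposited raw counts per gene, not normalized and with no mice pooled. The annotation release, strand setting and handling of multi-mapping reads are not given in the sources used here, so a count of overlapping genes is uncertain. Symbols and positions (1-based) came from GENCODE vM39 on GRCm39, which held 26338 of the 26619 identifiers.

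Counts were analyzed in R 4.3.3 with edgeR 4.0.16 (filterByExpr at a minimum count of 10, TMM, quasi-likelihood F-test, robust, in 1 fit over 4 diets), with Benjamini-Hochberg adjustment over the 17893 tested genes. The SE is the fold change divided by the square root of F, and 2 was the prior count for log2 CPM. Trends used the RPS percentage as a number, with adjusted p of at most 0.05 and no fold threshold. DESeq2 1.42.0, RLE scaling, no filter, the treatment label, leaving out mice, thinned libraries and covariates were alternatives. Of these fits, only the edgeR contrast of 10% against 0% RPS was tried on simulated data. Groups follow the description label. Named members were 10 set by name (Mki67, Top2a, Cdk1, Ccnb1, Ccne1, Foxm1, Cdc20, Pcna, Mcm2 and Rrm2), the 3 with the smallest p in each direction of each contrast and of the trend, and the 3 with the largest and the 3 with the smallest spread. Other genes named were those with the smallest trend p of a list and those called, while Cdt1, E2f1, Ncapg2, Pttg1, Cdkn1a, Cdkn1b, Lgr5 and the members outside this rule were picked after their values were seen. The members and lists were chosen with earlier results of these data known. Promoters came from RefSeq (GRCm38.p6), which is a different build from that of the counts.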

Additional observations from a re-analysis of the deposited data

Results flagged for a closer look

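Each of 26 measures (22 named members, 3 means and the total count) was checked in each diet for a mouse far from the other 4 by Dixon's ratio at the 95% level, 104 groups in all, of which 9 were marked (8.65%, where chance marks about 5%). The measures are not independent, since the members share mice and the means are built from members. Some named members were also picked by their spread within a diet, such as Bub1, 1 of the 3 with the largest. The 5% is therefore only a rough guide. RS10_712 (2% RPS) was low for Cdk1 (11.1 CPM, next 23.5), Foxm1 (7.75 CPM, next 15.5), Cdc20 (12.3 CPM, next 27.7) and Bub1 (2.55 CPM, next 7.01). The same mouse was low in the mean over the 41 members (3.64 log2 CPM, next 4.51) and over the mitotic members (3.49, next 4.53). RS10_704 (0% RPS) was high for Cdc20 (57.1 CPM, next 30.3) and for Ccnb2 (52.9 CPM, next 31.0). RS10_724 (5% RPS) had a total count of 22.3 megacounts, with the next at 28.7 megacounts.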

How the results depend on the processing

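The S phase median log2 fold change at 10% RPS stayed between 0.41 and 0.81 over 11 alternatives, and the mitotic median between -0.51 and -0.09. The Ccne1 trend call was lost (0 members called) without the filter, in thinned libraries, with the treatment label, without the 3 mice with disagreeing labels and with each covariate, while DESeq2 called 5 members in the trend, 4 at 10% RPS and 1 for any diet difference. Counts at an unadjusted p under 0.05 are given as members and, in brackets, S phase members. They join both directions. Of these fits, the share of all tested genes was counted only for the covariate fits at 10% RPS, and it is given above. The other counts cannot be read against such a share. At 5% RPS there were 5 (5) with the treatment label and 4 (4) without the 3 mice. With the B cell covariate there were 5 (5) at 10% RPS, 3 (3) at 5% RPS and 5 (5) in the trend. With the epithelium covariate there were 4 (0), 2 (0) and 1 (0), and with Cdx2 left out of it, chosen after seeing the data, 7 (5), 2 (2) and 4 (3). With the plasma cell covariate, also chosen then, there were 1 (0), 2 (1) and 0 (0). At 10% RPS the 4 with the epithelium covariate were lower, as were 2 of the 7 without Cdx2. The 1 with the plasma cell covariate, Ect2, was lower too. The cause was not tested.

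Some directions turned. With the B cell covariate these were Top2a -0.11 and Cdk1 -0.067 at 10% RPS, Cdk1 -0.059 at 5% RPS, Rrm2 -0.086 at 2% RPS, and the trends of Mki67 -0.084, Top2a -0.012 and Foxm1 -0.065. With the epithelium covariate they were Top2a -0.24 and Cdk1 -0.44 at 10% RPS, Cdk1 -0.38 and Rrm2 -0.082 at 5% RPS, Rrm2 -0.12 at 2% RPS, and the trends of Mki67 -0.37, Top2a -0.11, Cdk1 -0.33 and Foxm1 -0.26. Without Cdx2 they were -0.13, -0.28, -0.22 (Cdk1 at 5% RPS), -0.016 (Rrm2 at 2% RPS) and trends of -0.30, -0.055, -0.23 and -0.18. With the plasma cell covariate they were Top2a -0.43 and Cdk1 -0.36 at 10% RPS, Cdk1 -0.20 at 5% RPS, Rrm2 -0.062 at 2% RPS, and the trends of Mki67 -0.31, Top2a -0.32, Cdk1 -0.28 and Foxm1 -0.32. With the clock covariate they were Cdk1 -0.065 at 10% RPS, Top2a 0.014 at 5% RPS, and the trends of Mki67 -0.056 and Foxm1 -0.020. The treatment label gave Cdk1 -0.0058 at 5% RPS, the fit without the 3 mice Ccne1 -0.011 and Rrm2 -0.057 at 2% RPS, and no filter a Mki67 trend of -0.0074. The CHR share of mitotic members was 52.4% in 150 bases.

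Leaving out 1 mouse at a time gave 7 (without RS10_707, RS10_708, RS10_729 or RS10_731) to 14 (without RS10_704 or RS10_727) members at an unadjusted p under 0.05 at 10% RPS, all S phase, 0 to 1 at 2% RPS, and 0 to 6 trend calls (6 without RS10_727). No share of all tested genes was counted in these fits. Ranges at 10% RPS were -0.20 to 0.24 for Mki67, -0.044 to 0.30 for Top2a, -0.12 to 0.26 for Cdk1, -0.41 to 0.034 for Ccnb1 and -0.16 to 0.21 for Foxm1. At 5% RPS they were -0.27 to 0.14, -0.14 to 0.21, -0.086 to 0.26, -0.36 to 0.070 and -0.32 to 0.029, with -0.26 to 0.15 for Cdc20. At 2% RPS they were -0.35 to 0.061 for Mki67, -0.33 to 0.018 for Top2a, -0.25 to 0.093 for Cdk1, -0.012 to 0.40 for Ccne1 and -0.16 to 0.38 for Rrm2. Trends ran from -0.14 to 0.23 for Mki67, -0.054 to 0.26 for Cdk1, -0.31 to 0.077 for Ccnb1, -0.069 to 0.28 for Foxm1, 0.44 to 0.60 for Pcna and 0.64 to 0.84 for Mcm2. No paired analysis was possible because mouse numbers are unique to an animal. RPS libraries were shallower. The SE at 10% RPS was largest for Uhrf1 (0.44) and next for Bub1 (0.39), while Ccne1, the member of lowest mean CPM, had 0.27.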
